A study of Homo sapiens with 6 samples.

Results

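The shHMGA2-1 line of MDA-MB-231 was compared with the shNC line gene by gene. MDA-MB-231 is a human triple-negative breast cancer cell line with a mesenchymal character. The comparison rested on 4 of the 6 RNA sequencing libraries of the series, namely 2 of shHMGA2-1 and 2 of shNC, which were chosen by their titles. Both lines carried a lentiviral short hairpin RNA, directed at HMGA2 in shHMGA2-1 and used as the control in shNC. The other 2 libraries came from shHMGA2-2, a line with a different hairpin against HMGA2, and were used to ask which genes changed only in shHMGA2-1. According to the study's methods, a knockdown line was grown out from a single clone after puromycin selection, so that the hairpin and the clone cannot be told apart. Whether shNC was cloned in this way was not stated. The sources used here do not say that the 2 libraries of a line came from separate cultures, and p-values therefore measure only the spread between these samples. The library names call the controls WT and the shHMGA2-1 libraries SH2, and the titles were followed. Libraries held 16461178 to 17167293 counts, and 16110 of 61806 genes passed the filter on low counts and were tested.

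HMGA2 is a small chromatin protein whose AT-hooks bind the minor groove of AT-rich DNA. It is abundant in the embryo, low in most adult tissues and often made again in cancers, where it has been tied to invasion and to a mesenchymal state. The line therefore asks what changes in an already mesenchymal breast cancer cell when HMGA2 mRNA is lowered in part.

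The shHMGA2-1 hairpin was directed at 21 bases of HMGA2. These lie in exon 2 of the gene, within the coding sequence, at chromosome 12, 65828064 to 65828084 (GRCh38, plus strand), in 7 of the 7 protein-coding HMGA2 transcripts of GENCODE 29. No transcript of another gene matched all 21 bases, and matches with mismatches were not searched. The site is shown with 15 bases of the mRNA on each side, read 5′ to 3′, and the capitals mark the target.
HMGA2 mRNA around the shHMGA2-1 target: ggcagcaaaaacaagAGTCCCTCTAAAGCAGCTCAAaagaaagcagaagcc

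HMGA2 itself had 2126 and 2161 counts in the shNC libraries, against 858 and 989 in those of shHMGA2-1. After normalization by the trimmed mean of M values (TMM), which gives CPM, the counts scaled to library size and not to gene length, its level was 132 ± 1.57 CPM (SD, n = 2) in shNC and 53.9 ± 6.23 CPM (SD, n = 2) in shHMGA2-1. The groups did not overlap, and HMGA2 was 2.45-fold lower in shHMGA2-1 (log2 fold change -1.29, SE 0.09, adjusted p = 2.17e-11). These and all further adjusted p-values are Benjamini-Hochberg values over the 16110 genes, from the quasi-likelihood test of edgeR. The knockdown was partial, and the log2 difference from shHMGA2-2, in which HMGA2 was lower still, was 1.01 (SE 0.09, adjusted p = 3.07e-09).

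Markers of the cell line and of other cell types were read beside the 8.49% of all tested genes that were called, that is, changed at least 2-fold with an adjusted p under 0.05. The lists hold 3 to 11 tested genes each, and their counts were not tested against that share. Vimentin (VIM), CD44, EGFR, AXL and the other members of a list of 11 markers of mesenchymal triple-negative cells were all tested, and 0 of 11 were called. Without the fold limit 8 of the 11 were lower and 1 higher, with a median log2 fold change of -0.42. The split among all tested genes was 2843 lower and 2545 higher. VIM was at 2300 ± 53.8 CPM in shNC and 2190 ± 14.4 CPM in shHMGA2-1 (SD, n = 2). The hormone receptor genes ESR1 and PGR had 12 counts or fewer in every library and were not tested. Of 14 luminal markers 9 were tested, and 1, MUC1, was called higher. Of 18 leukocyte markers 7 were at 0 in all libraries of the comparison and 3 were tested and called, CD8A higher (11 and 23 counts against 61 and 63) and LCP1 (130 and 107 against 21 and 26) and HCLS1 (21 and 15 against 0) lower. PTPRC, which marks leukocytes in general, had 2 counts or fewer in every library. Of 10 endothelial markers 3 were tested, and 1, PECAM1, was called lower.

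A gene was called changed when its adjusted p was under 0.05 and its level differed at least 2-fold. By this rule 1367 genes, 8.49% of those tested, differed between shHMGA2-1 and shNC. Of these, 788 genes were up regulated (4.89% of those tested) and 579 were down regulated (3.59%). Without the fold limit 5388 genes (33.4%) had an adjusted p under 0.05, 2545 higher and 2843 lower. Of these, 4021 differed by less than 2-fold. The median log2 fold change of all tested genes was 0.01, with quartiles of -0.24 and 0.28. Of the called genes 510 differed over 4-fold, 347 higher and 163 lower. In both shNC libraries 153 had 3 counts or fewer, of which 151 were higher. In both shHMGA2-1 libraries 53 had 3 counts or fewer, and all 53 were lower. A gene so low in one line can hardly be called lower still there, so that these splits follow from the choice.

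The split between higher and lower differed with the CPM of the genes. Among 4335 genes whose higher line lay between 1 and 10 CPM, 17.1% were called, 494 higher and 246 lower. Among 2693 genes at 100 CPM or more, 2.41% were called, and here 56 were lower and 9 higher. At 150 CPM or more, 32 of 37 called genes were lower. The following genes with many counts were chosen after their values were seen. MT-RNR1, the 12S ribosomal RNA of mitochondria, had 62525 and 65778 counts in shNC against 12973 and 14051 counts in shHMGA2-1. In shHMGA2-2 it had 13704 and 11543 counts. It was the only gene called among 16 tested genes of the mitochondrial genome, whose median log2 fold change was 0.15. FTL, the light chain of the iron store ferritin, fell from 2860 ± 55.4 CPM to 1280 ± 133 CPM (SD, n = 2). NRP1, a co-receptor of semaphorins and VEGF, fell from 1090 ± 27.6 CPM to 257 ± 12.5 CPM. SLC7A11, the cystine importer, fell from 459 ± 21 CPM to 114 ± 9.64 CPM. Going the other way, BIRC2, an inhibitor of apoptosis and ubiquitin ligase, rose from 380 ± 4.91 CPM to 829 ± 61.4 CPM, and PLAU, the urokinase plasminogen activator, rose from 95.8 ± 11.4 CPM to 293 ± 12.8 CPM. In each of these genes the replicates of a line lay closer together than the lines did.

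Among genes with a mean of at least 100 counts in the higher line, the largest rises came from genes that were nearly silent in shNC. RAP1GAP2, a GTPase-activating protein for Rap1, had 0 counts in both shNC libraries against 113 and 123 in shHMGA2-1, which was at least 37.3-fold higher when 3 counts per library are taken as the floor of shNC. CD33, a sialic acid binding lectin of myeloid cells, had 1 count in each shNC library against 225 and 235 counts, a ratio of 218 (95% interval 60 to 1800, counting error only). TSPAN33, a tetraspanin, had 1 and 3 counts against 121 and 85, a ratio of 48.8 (95% interval 18.8 to 181). For each gene, chosen for its fold change, both shHMGA2-1 libraries lay above both shNC libraries.

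NLRP2, an inflammasome-related gene, rose from 7 and 4 counts to 237 and 181 (log2 fold change 5.14, SE 0.29, adjusted p = 1.29e-12). FAM117A had 3 counts in each shNC library and 105 and 104 counts in shHMGA2-1. BRSK2, a kinase of neuronal polarity, rose from 2 and 7 counts to 160 and 116. The other genes of this rule were NFATC4 (log2 fold change 4.27), ATP10A (4.17), NEDD9 (4.15) and JCAD (3.76). ATP10A differed between the shNC libraries, with 9 counts in one and 33 in the other, yet both lay far under the 399 and 405 counts of shHMGA2-1. For CD33, a myeloid marker, the leukocyte marker counts above apply, with PTPRC at 2 counts or fewer in every library.

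Among genes with the same minimum of counts, the largest falls were those of TNC and HAS2. TNC, the matrix glycoprotein tenascin-C, had 192 and 210 counts in shNC against 8 and 5 in shHMGA2-1 (log2 fold change -5.0, SE 0.27, adjusted p = 4.89e-13). HAS2, which makes the matrix polysaccharide hyaluronan, had 155 counts in each shNC library and 8 and 2 in shHMGA2-1 (log2 fold change -5.0, SE 0.32, adjusted p = 1.19e-11). FN1, fibronectin, fell from 264 ± 8.37 CPM to 17.9 ± 0.876 CPM (SD, n = 2), a log2 fold change of -3.88 (SE 0.09, adjusted p = 6.01e-20). For the 3 genes, chosen for their fold change, both shHMGA2-1 libraries lay below both shNC libraries.

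SLIT2, a secreted guidance cue, fell from 523 and 516 counts to 50 and 40. PPARG, a nuclear receptor of lipid metabolism, fell from 475 and 484 counts to 25 and 43. SLC22A3, an organic cation transporter, fell from 354 and 352 counts to 21 and 24. The remaining genes were LYPLAL1-DT (log2 fold change -4.78), FILIP1L (-4.01), CLMP (-3.69) and KLHL4 (-3.54). LYPLAL1-DT is a divergent transcript, and the strand setting of the counting is not given in the sources used here.

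Terms of the deposited annotation showed where the called genes lay. In GO "extracellular matrix", 40 genes of 121 tested were called, 19 higher and 21 lower, which was 33.1% against 8.49% of all tested genes. In "extracellular matrix organization" 15 were higher and 12 lower of 81 (33.3%), and in "basement membrane" 7 were higher and 9 lower of 61 (26.2%). The medians of these terms lay at a log2 fold change of 0, 0.01 and -0.01, so that the called genes went both ways in about equal number. For the secreted signals, "cytokine activity" held 7 higher and 13 lower of 68 (29.4%) and "growth factor activity" 11 higher and 12 lower of 83 (27.7%). "Immune response" reached 23.6% of 127 genes and "axon guidance" 20% of 115.

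The KEGG pathways were read in the same way. In "ECM-receptor interaction" 8 genes were higher and 9 lower of 73 (23.3%). "Cell adhesion molecules" held 13 higher and 7 lower of 83 (24.1%), "Cytokine-cytokine receptor interaction" 12 higher and 18 lower of 133 (22.6%) and "Complement and coagulation cascades" 6 higher and 4 lower of 39 (25.6%). In "JAK-STAT signaling pathway" 4 were higher and 11 lower of 127 (11.8%). "Pathways in cancer" lay nearer to the background, with 30 higher and 27 lower of 485 (11.8%).

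Terms of the basic machinery of the cell held few called genes. "Translation" had 1.94% of 309 genes called, KEGG "Cell cycle" 2.16% of 139, "DNA repair" 3.65% of 274, "mitochondrion" 4.04% of 1237 and KEGG "DNA replication" 0 of 33. The share of all tested genes called was 9.97% below 1 CPM, 17.1% from 1 to 10 CPM, 5.1% from 10 to 100 CPM and 2.41% above, and these terms differ in CPM. The median over genes was 9.14 CPM for "extracellular matrix", 41.5 CPM for "translation", 80.1 CPM for "Cell cycle" and 19.9 CPM for all tested genes. Over genes of at least 10 CPM only, 20 of 55 "extracellular matrix" genes (36.4%), 8 of 27 "cytokine activity" genes (29.6%), 1 of 213 "translation" genes (0.469%) and 2 of 120 "Cell cycle" genes (1.67%) were called, beside 4.36% of all 9749 genes at that level.

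When all 1937 GO and 297 KEGG terms with 15 to 300 tested genes were ranked by the share called, small terms came first. The GO ranking began with "neurotransmitter transport" (7 of 15 genes, 46.7%), MHC class II presentation of exogenous peptide (8 of 18, 44.4%) and "odontogenesis of dentin-containing tooth" (10 of 23, 43.5%). Over genes of at least 10 CPM these 3 terms had 2 of 7, 2 of 8 and 4 of 14 called, beside 4.36% of all genes at that level. "Collagen trimer" (41.7% of 24), "semaphorin receptor binding" (2 higher and 6 lower of 20) and "integrin complex" (3 and 3 of 15) followed. The KEGG ranking began with "Mucin type O-glycan biosynthesis", which adds the first sugars to mucins, with 2 genes higher and 5 lower of 22 (31.8%). Its member GALNT3 fell from 1303 and 1275 counts to 105 and 150 (log2 fold change -3.41, SE 0.14, adjusted p = 2.27e-15). "Hematopoietic cell lineage" followed with 10 higher and 8 lower of 57 (31.6%). The KEGG column places some genes where their names do not lead one to look, such as VAX2, a homeobox gene, in oxidative phosphorylation, and the terms were used as deposited.

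Lists of genes by function were then read one at a time, each beside the 8.49% called among all tested genes and its median beside 0.01. Of 28 collagen chains 20 were tested, 5 rose and 3 fell, with a median log2 fold change of 0.32. COL6A2 rose from 42 and 34 counts to 264 and 238 (log2 fold change 2.64, SE 0.17, adjusted p = 1.49e-11). The basement membrane chains COL4A5 and COL4A6, neighbours on the X chromosome, rose as well, from 140 and 166 counts to 600 and 529 and from 2 counts in each library to 52 and 39. COL1A1, the main fibrillar collagen, rose from 53 and 78 counts to 237 and 184, while COL8A1, COL17A1 and COL7A1 fell by 1.32, 1.19 and 1.02 on the log2 scale.

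Of 42 matrix glycoproteins and proteoglycans 29 were tested, 7 rose and 4 fell. Beside TNC and FN1, EFEMP1 and THBS1 fell (log2 fold change -1.48 and -1.20). Among those that rose, FBLN5 went from 33 counts in each shNC library to 195 and 212, and EFEMP2 from 2 and 3 counts to 25 and 13. The latent TGF-beta binding proteins LTBP3 and LTBP2 rose with log2 fold changes of 1.66 and 1.01, and MATN3 and MATN2 with 1.41 and 1.11. Of 11 laminin chains 10 were tested and 2 fell. These were LAMB3 (log2 fold change -1.40) and LAMA3 (-1.06), which form part of the same epithelial laminin. Without the first shNC library LAMA3 was at -0.99 and not called.

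Of 20 metalloproteinase and inhibitor genes 11 were tested, 0 rose and 2 fell. MMP1, the interstitial collagenase, fell from 155 and 165 counts to 53 counts in each shHMGA2-1 library (log2 fold change -1.67, SE 0.21, adjusted p = 7.41e-07), and MMP16 had a log2 fold change of -1.03, which was -0.77 and not called without the first shHMGA2-1 library. MMP2 had 0 counts and MMP9 at most 1 count in each shNC and shHMGA2-1 library, so that no change in either was detectable at this depth. In the plasminogen system 10 of 13 genes were tested. PLAU and SERPINB9 rose and SERPINB7 fell, the last from 10 and 16 counts to 0 and 1.

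Integrins, the receptors through which cells hold the matrix, changed in 5 of 16 tested subunits. ITGA2 and ITGA1, which pair with beta-1 to bind collagen, fell by 1.42 and 1.66 on the log2 scale, and ITGA10 had a log2 fold change of -1.04. ITGA1 and ITGA2 lie close together on chromosome 5. ITGB4, the laminin receptor subunit of hemidesmosomes, rose from 164 and 157 counts to 1289 and 1058 (log2 fold change 2.79, SE 0.12, adjusted p = 5.96e-15). ITGA7, a laminin-binding subunit, rose by 2.09 on the log2 scale. The median of the 16 subunits was -0.34.

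Called genes of the epithelial and of the mesenchymal list went both ways. Of 33 epithelial adhesion and keratin genes 23 were tested, 4 rose and 4 fell. JUP, plakoglobin, rose from 45 and 47 counts to 255 and 207, and DSP, desmoplakin, rose by 1.41 on the log2 scale, while the tight junction gene CLDN4 fell from 241 and 244 counts to 36 in each library. CDH1, E-cadherin, had 2 counts or fewer in each of the 4 libraries. Of 20 mesenchymal genes and transcription factors of the epithelial-mesenchymal transition 11 were tested, 1 rose (ACTA2, log2 fold change 1.03) and 2 fell (S100A4 and PDGFRB, -2.59 and -1.57). Without the fold limit 5 mesenchymal genes were lower and 2 higher, with a list median of -0.3. Among all tested genes 2843 were lower and 2545 higher by that limit. The epithelial list had 10 lower and 9 higher, with a median of 0.09. ACTA2 was not called without the first shHMGA2-1 or the second shNC library (adjusted p = 0.192 and 0.125), nor PDGFRB without the second shNC library (adjusted p = 0.105).

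The interleukins and colony-stimulating factors were lower where they changed. Of 14 tested, 0 rose and 5 fell, and the median log2 fold change was -0.60. IL11, a gp130 cytokine, fell from 547 and 496 counts to 86 and 77 (log2 fold change -2.75, SE 0.17, adjusted p = 5.02e-12). IL6 fell from 117 and 93 counts to 41 and 50, IL15 from 64 and 70 to 28 and 15, IL24 from 18 and 36 to 6 and 2 and CSF3 from 29 and 14 to 3 and 5. CSF3 rested on few counts and was not called when the first shNC library was left out (adjusted p = 0.0963). Of 22 tested receptors of this group 0 rose and 2 fell, IL7R (log2 fold change -1.77) and IL31RA (-1.26). This share of 9.09% is near the 8.49% of all tested genes.

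Chemokines and their receptors went both ways, with 2 higher and 3 lower of 8 tested. CXCL8, the neutrophil attractant, fell from 775 and 757 counts to 168 and 241 (log2 fold change -1.98, SE 0.12, adjusted p = 3.43e-12). CXCL3 fell by 1.76 on the log2 scale, and CCL26 from 18 and 11 counts to 0 and 1. CXCL8 and CXCL3 lie close together on chromosome 4. CXCL16 rose from 5 and 1 counts to 54 and 64, and CCL28 rose by 1.59 on the log2 scale. Of 18 NF-kB subunits and feedback targets, TRAF1 and BCL3 fell and ICAM1 rose. Without the fold limit 10 were lower and 2 higher, beside 2843 lower and 2545 higher of all tested genes. BCL3 was not called without the first shNC library, where its log2 fold change was -0.80.

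Of 40 tested interferon-stimulated genes 5 rose and 2 fell, with a median of 0.12. MX1, an antiviral GTPase, rose from 23 and 24 counts to 159 and 125, whereas GBP1 fell from 743 and 700 counts to 193 and 239. Of 13 MHC class II genes 11 passed the filter, some of them only through shHMGA2-2, and 5 had 0 counts in all shNC and shHMGA2-1 libraries. HLA-DMB rose from 1 and 4 counts to 30 and 13, HLA-DPA1 had 0 and 1 counts against 12 in each library, and HLA-DPB1 had 0 against 8 and 3, at least 1.73-fold higher over the floor of 3 counts. The invariant chain CD74 had 6 and 4 counts against 0 and 1, and the master regulator CIITA fell by 1.03 on the log2 scale. CIITA apart, these genes had 30 counts or fewer in each library of the comparison. CD74 and HLA-DPB1 were not called without the first shHMGA2-1 library (adjusted p = 0.131 and 0.0538), nor CD74 without the first shNC library (adjusted p = 0.11). Of 12 tested complement genes 3 rose and 2 fell. SERPING1, the C1 inhibitor, had 0 counts in shNC against 30 and 17 in shHMGA2-1, at least 7.40-fold higher, and C1R and C1S rose by 1.73 and 2.72 on the log2 scale, while clusterin (CLU) fell from 737 and 808 counts to 180 and 105.

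Growth factors and their receptors changed in 11 of 36 tested genes. Among the ligands of the EGF receptor, TGFA fell from 1035 and 1050 counts to 193 in each library (log2 fold change -2.51, SE 0.11, adjusted p = 4.54e-15), AREG and EREG fell by 1.59 and 1.10 on the log2 scale, and BTC rose by 1.36. AREG, EREG and BTC lie close together on chromosome 4. ERBB3, which binds neuregulins, rose from 44 and 34 counts to 92 and 127. KITLG, the ligand of KIT, fell from 625 and 600 counts to 183 and 224. IGF2 had 0 counts in shNC against 8 and 6 in shHMGA2-1, at least 2.21-fold higher. It passed the filter on low counts only through shHMGA2-2, where it had 41 and 51 counts. EGFR itself was at 558 ± 3.86 CPM in shNC and 333 ± 10.1 CPM in shHMGA2-1, which did not reach 2-fold. Among 28 tested ERK feedback and early response genes, EGR1, an immediate early transcription factor, rose from 323 and 295 counts to 1698 and 1670, and IER3, SPRED3 and DUSP4 had log2 fold changes of -1.09, -1.05 and -1.04. Without the second shHMGA2-1 library SPRED3 and DUSP4 were at -0.88 and -0.93 and not called, nor was SPRED3 without the second shNC library (-0.99).

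Guidance genes, which steer axons and migrating cells, changed in 14 of 45 tested members, 5 higher and 9 lower. The secreted cues SLIT2 and SEMA3A fell by 3.60 and 2.98 on the log2 scale, and SEMA3A had 149 and 145 counts in shNC against 16 and 23 in shHMGA2-1. Of the receptors, NRP1 fell, as given above, and PLXNB1 and EPHB3 rose from 5 and 10 counts to 88 and 58 and from 5 and 8 counts to 66 and 60. NRP1 lies on chromosome 10 inside a run of 14 neighbouring genes that were lower in shHMGA2-1, from 32887273 to 37976647. The run begins with ITGB1, the beta-1 integrin subunit. The median log2 fold change of this run was -0.96 in shHMGA2-1 and -2.02 in shHMGA2-2.

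Among 16 tested Notch genes 4 rose and 2 fell. HES1, a transcriptional repressor and Notch target, rose from 216 and 183 counts to 1547 and 1747 (log2 fold change 2.97, SE 0.11, adjusted p = 9.11e-16). The ligand JAG2 rose from 82 and 91 counts to 369 and 337, and the ligand JAG1 fell from 1020 and 1062 to 517 and 547. LFNG, which adds sugar to Notch receptors, fell from 35 and 28 counts to 11 and 9. Of 35 tested TGF-beta and BMP genes 3 rose and 2 fell. INHBB, an activin subunit, rose from 352 and 386 counts to 1657 and 1586, and the activin antagonist FST fell from 778 and 774 to 272 and 262. TGFB2 fell by 1.50 on the log2 scale. Of 29 tested Wnt genes 3 rose and 2 fell, led by FZD8 (-2.48), FZD3 (2.29) and WNT7B (-1.67). FZD8 lies in the same chromosome 10 run as NRP1.

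In lipid metabolism 5 of 22 tested uptake and PPAR target genes rose and 3 fell. ANGPTL4, a PPAR and hypoxia target that inhibits lipoprotein lipase, rose from 20 and 17 counts to 231 and 172, and LPL, the lipase itself, had 0 counts in shNC against 24 in each shHMGA2-1 library, at least 7.58-fold higher. The receptors PPARG and PPARA fell by 3.89 and 1.06 on the log2 scale, and the acyl-CoA synthetase ACSL5 by 1.64. Of 31 sterol and fatty acid synthesis genes 0 were called, with a list median of -0.33. Yet 22 had an adjusted p under 0.05, all 22 lower, beside 33.4% of all tested genes in either direction. Of 35 tested glycolysis and hypoxia genes 5 rose and 0 fell, with a median of 0.29. These were VLDLR (log2 fold change 2.07), ALDOC (1.79), PDK1 (1.22), ANKRD37 (1.20) and P4HA2 (1.07). ANKRD37 had at most 54 counts in a library of the comparison and was not called without the second shHMGA2-1 or the first shNC library (adjusted p = 0.0613 and 0.0652).

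Among 25 amino acid stress and unfolded protein response genes PHGDH and VLDLR rose and SLC7A11 fell. PHGDH, the first enzyme of serine synthesis, rose from 18 and 24 counts to 266 and 261 (log2 fold change 3.56, SE 0.21, adjusted p = 1.45e-12). Of 24 tested CDK inhibitor and p53 target genes 8.33% were called, near the 8.49% of all tested genes. BTG2 rose from 1 count in each library to 68 and 55, and the death receptor FAS rose from 157 and 137 to 385 and 447. In this list 0 were called lower, although its lowest log2 fold change was -4.44. Voltage-gated channels changed in 8 of 21 tested genes, 2 higher and 6 lower, with KCNQ3 falling from 396 and 420 counts to 77 and 53 and SCN9A rising from 229 and 169 to 678 and 802. Of 9 tested S100 proteins 0 rose and S100A4, S100A3 and S100A2 fell by 2.59, 2.21 and 1.24 on the log2 scale. These 3 genes lie together on chromosome 1, and the list median was -0.96.

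Beside the mesenchymal markers given above, 5 lists had no called member. These were 30 mitosis genes (median log2 fold change 0.15), 34 DNA replication genes (-0.05), 36 respiratory chain subunits (0.11), 17 Hippo effectors and YAP targets (-0.29) and the sterol genes. The fold limit sets these counts in part. An adjusted p under 0.05 was reached by 14 mitosis genes, 9 replication genes, 10 respiratory chain subunits and 13 Hippo genes. The share among all tested genes was 33.4%, which the replication and respiratory chain lists did not reach. The largest difference among the mitosis genes was a log2 fold change of 0.42.

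The comparison with shHMGA2-2 asked which changes belonged to shHMGA2-1. Against the same shNC libraries 21.3% of the tested genes were called in shHMGA2-2, and 15.1% differed between the 2 knockdown lines by the same rule. Both contrasts share the shNC libraries, so that an error in shNC would enter both. Of the 1367 genes called in shHMGA2-1, 884 were called in the same direction in shHMGA2-2, 79 in opposite directions and 404 were not called there. A gene was counted as changed only in shHMGA2-1 when it was called against shNC, was not called in shHMGA2-2 against shNC, and was called between the lines in the same direction. This held for 223 genes (1.38% of those tested), 108 higher and 115 lower. The rule itself used all 6 libraries, and the values below describe its members. Not being called in shHMGA2-2 does not mean being unchanged there. Against shNC, MATN3 and CD24 had log2 fold changes of -0.97 and -0.79 in shHMGA2-2, opposite to shHMGA2-1 (adjusted p = 0.000431 and 0.00117). HAS2 was lower in both lines (-0.68 in shHMGA2-2, adjusted p = 0.00368), and NEDD9 had -0.08 in shHMGA2-2 (adjusted p = 0.889). Of the 223 genes, 152 were within 1.5-fold of shNC in shHMGA2-2, and 181 other genes were called in shHMGA2-1 and not in shHMGA2-2 but did not pass the contrast between the lines.

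Among the 108 genes higher only in shHMGA2-1, NEDD9 had the largest difference between the lines. NEDD9 is a scaffold of focal adhesions that promotes migration. It had 10 and 12 counts in shNC, 207 and 211 counts in shHMGA2-1, then 11 in each shHMGA2-2 library, so that the other lines lay together near the lower end. DCLK1, a kinase that binds microtubules, had 156 and 140 counts in shNC, 1364 and 1676 counts in shHMGA2-1, then 101 and 103 in shHMGA2-2. HES1 had 282 and 305 counts in shHMGA2-2 beside the values given above. DCLK1 reached 88.7 ± 14.2 CPM in shHMGA2-1 and HES1 96.1 ± 9.73 CPM (SD, n = 2).

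SYT17 rose from 28 and 26 counts to 140 and 110, with 9 and 30 in shHMGA2-2. AFF3, a nuclear protein of transcription elongation complexes, had 21 and 20, then 138 and 119, and 24 in each shHMGA2-2 library. MATN3, a matrix protein of cartilage, had 86 and 92 counts in shNC, 252 and 249 counts in shHMGA2-1, then 57 and 39 in shHMGA2-2. FBLN5 had 48 and 38 counts in shHMGA2-2. CD24, a surface glycoprotein, had 91 counts in each shNC library, 235 and 230 in shHMGA2-1 and 54 and 57 in shHMGA2-2. In all 8 genes, which were chosen for such a difference, the shHMGA2-1 libraries lay above the other 4 libraries.

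Among the 115 genes lower only in shHMGA2-1, TNC and HAS2 led. TNC had 189 and 219 counts in shHMGA2-2, close to its counts in shNC, and HAS2 had 103 and 102. FILIP1L had 157 and 166 counts in shNC, 9 and 12 counts in shHMGA2-1, then 142 and 158 in shHMGA2-2. CDA, cytidine deaminase, had 123 and 150, then 14 and 12, and 88 and 86. Of the leading genes these 4 were nearly lost in shHMGA2-1 and kept most of their counts in shHMGA2-2.

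NHS had 347 and 335 counts in shNC, 76 and 71 counts in shHMGA2-1, then 394 and 349 in shHMGA2-2. CD274, which encodes the checkpoint ligand PD-L1, had 381 and 390, 122 and 85, and 469 and 436. RUNX2, a transcription factor of bone, had 549 and 505, 102 and 108, and 417 and 416. The pseudogene ZNF702P had 276 and 250, 43 and 48, and 247 and 209, and its reads may be shared with related zinc finger genes. In all 8 genes, chosen in the same way, the shHMGA2-1 libraries lay below the other 4.

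Several genes with many counts were also lower only in shHMGA2-1. They were named after their values were seen. EMP1, an epithelial membrane protein, had 3579 and 3529 counts in shNC, 1350 and 1264 counts in shHMGA2-1, then 4082 and 4127 in shHMGA2-2. NAMPT, the rate-limiting enzyme of NAD salvage, had 3961 and 3986, 1611 and 1767, and 6033 and 5944. Its processed pseudogene NAMPTP1 followed it (376 and 424, 164 and 189, 601 and 588), and reads of the pair may have been shared. NAMPTP1 also lies in the chromosome 10 run of lower genes given above. PTX3, a secreted pattern recognition protein, had 1553 and 1510, 519 and 521, and 1795 and 1701, and CTSD, the lysosomal protease cathepsin D, had 2795 and 2887, 1517 and 1261, and 3665 and 4366. AHR, the aryl hydrocarbon receptor, had 1209 and 1273, 378 and 500, and 1013 and 1019. Among those that were higher only in shHMGA2-1, SAT1, which acetylates polyamines, had 1225 and 1127 counts in shNC, 2932 and 2796 counts in shHMGA2-1, then 1238 and 1298 in shHMGA2-2. BHLHE40, a transcription factor of hypoxia and of the clock, had 648 and 689, 1537 and 1539, and 496 and 477.

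By list, the genes changed only in shHMGA2-1 included 4 of 20 tested collagens (COL1A1, COL4A5 and COL4A6 higher, COL7A1 lower), 4 of 29 matrix glycoproteins (FBLN5, MATN3 and LTBP2 higher, TNC lower), 3 of 36 growth factor and receptor genes, 3 of 16 Notch genes and 3 of 18 NF-kB genes, beside 1.38% of all tested genes. By term, "extracellular matrix" held 10 among 121 tested genes, 8 higher and 2 lower, and "extracellular space" 29 among 689, 12 higher and 17 lower. The 3 NF-kB genes were ICAM1 (higher) and TRAF1 and BCL3 (lower), and the 3 Notch genes were HES1 and HEYL (higher) and LFNG (lower).

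In the 79 genes with opposite directions, 35 rose and 44 fell in shHMGA2-1. ATP10A and NFATC4, among the strongest rises of shHMGA2-1, had 0 counts and at most 1 count in the shHMGA2-2 libraries. IL24 had 506 and 446 counts in shHMGA2-2, CXCL8 2529 and 2669, and LAMB3 5808 and 6398, each above shNC, whereas each was below shNC in shHMGA2-1. INHBB and SCN9A rose in shHMGA2-1 and had 11 and 9 and 13 and 9 counts in shHMGA2-2.

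Position along the chromosomes was examined last. The share of tested genes called lay between 6.4% on chromosome 20 and 13.5% on chromosome 18 among the autosomes, and chromosome 18 had 11 higher and 22 lower genes of 244 and a median log2 fold change of -0.18. Runs of neighbouring genes that moved together were found with windows of 15 tested genes. The longest run with window medians at or under -0.5 in the genome lay on chromosome 3, from 93980139 to 108543875 (GRCh38), and held 49 tested genes. It was chosen for these values, which are given as a description.

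Of the 49 genes of this stretch 45 were lower in shHMGA2-1 than in shNC, and their median log2 fold change was -0.80. The 881 other tested genes of chromosome 3 had a median of -0.04. Library by library, the median log2 ratio to the shNC mean was -0.87 and -0.76 in the shHMGA2-1 libraries and -0.24 and -0.19 in the shHMGA2-2 libraries, and the shNC libraries differed from each other by 0.01. Among the 32 genes of the stretch at 10 CPM or more, 31 were lower, with quartiles of -0.96 and -0.58. Members that did not reach 2-fold included the mitochondrial import receptor TOMM70 (-0.76), the heme synthesis enzyme CPOX (-0.96) and the histone demethylase RIOX2 (-0.76). Of the genes described above, FILIP1L and COL8A1 lie in this stretch, and so do CD47 (-1.0), the "do not eat me" signal, the ubiquitin ligase CBLB (-1.49) and the NF-kB regulator NFKBIZ (-0.84).

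The stretch held 17 called genes, all lower, and 7 of the 223 genes changed only in shHMGA2-1. A further 16 neighbours on chromosome 18, from 35257040 to 37232172, had a median of -0.97 in shHMGA2-1 and 0.54 in shHMGA2-2, and 7 of them were changed only in shHMGA2-1. Since each knockdown line is described as a single clone, a local difference in DNA copies between lines and a local difference in transcription cannot be told apart in these data. The log2 fold change of each gene was then centred on the median of its 50 nearest tested genes, a choice made after the data were seen. The adjusted p-values were kept from the main fit and do not test the centred change. By the same limits 1303 genes passed, of which 1266 were among the 1367.

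**Figure D1:**
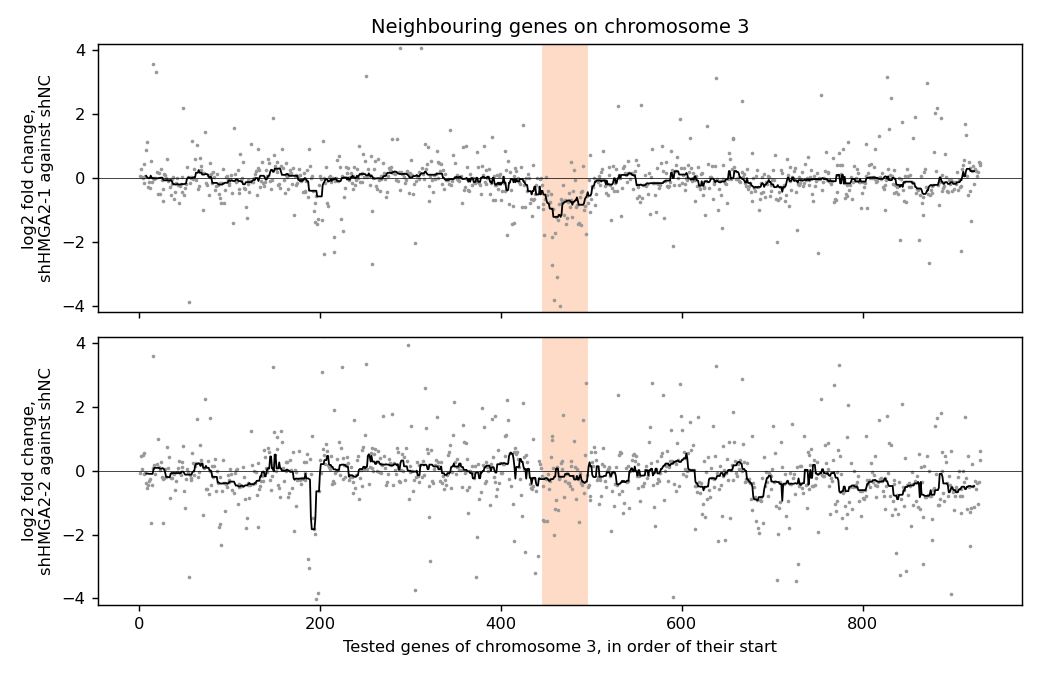
Tested genes of chromosome 3 in order of their start (x axis) with their fitted log2 fold change against shNC (y axis, cut at 4.2 on either side, which hides 6 genes in the upper and 23 in the lower panel), for shHMGA2-1 above and shHMGA2-2 below; the line is the median of 15 neighbouring genes. In the shaded stretch of 49 genes the line lies well under 0 in shHMGA2-1 (median -0.80) and nearer to 0 in shHMGA2-2 (median -0.24).

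KAT6A, a histone acetyltransferase that the study pairs with HMGA2, had 1740 and 1730 counts in shNC against 1390 and 1591 in shHMGA2-1. The fitted log2 fold change of -0.30 (SE 0.09, adjusted p = 0.0113) is under the fold limit.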

How the data were processed

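Human MDA-MB-231 RNA was sequenced in 6 libraries, grouped by title. The authors deposited raw counts per gene and FPKM values, that is counts scaled by exon length and library size, in a single table with GO and KEGG terms. The submitters' processing notes name HISAT2 2.2.1, HTSeq 0.6.1 and GRCh38.p13, without roles or order, and the strand setting is not given in the sources used here. Sample columns left unused numbered 0.

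Counts were tested with edgeR 4.0.16 in R 4.3.3 (TMM, filterByExpr by group, quasi-likelihood test, 1 model of 3 groups). A call needed an adjusted p under 0.05 and a 2-fold change. On simulated counts the steps were tested for recovery of known changes. DESeq2 1.42.0, a test against the 2-fold limit (glmTreat), other scalings, filters, a replicate block and left-out libraries were tried. FPKM served only as a filter. Intervals (95%, exact) and floors of 3 counts cover counting error only.

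The contrast, the 36 gene lists and the 67 terms (64 found in the table) were chosen with earlier results of these data known. Genes named are those of the study, the 10 highest and 10 lowest fold changes at 100 counts or more, 8 each way by difference between the lines among genes changed only in shHMGA2-1, and the called members of lists and terms with the largest change. Other genes were named after their values were seen. RefSeq promoters matched only 928 of 1367 called genes (67.9%), so that the planned check of promoter composition is void. Coordinates are those of the table; 58254 of its genes were found in GENCODE 29, 71.51% with the same start and end.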

Additional observations from a re-analysis of the deposited data

Results flagged for a closer look

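The contrast between the knockdown lines, by edgeR's quasi-likelihood test, set apart the 223 genes changed only in shHMGA2-1 and the 79 genes changed in opposite directions. The values below are log2 differences of shHMGA2-1 from shHMGA2-2. Among the genes higher only in shHMGA2-1 they were 4.23 for NEDD9, 3.90 for DCLK1, 2.68 for SYT17, 2.49 for HES1, 2.42 for AFF3, 2.38 for MATN3, 2.24 for FBLN5 and 2.07 for CD24. Among those lower only in shHMGA2-1 they were -4.94 for TNC, -4.32 for HAS2, -3.82 for FILIP1L, -2.73 for CDA, -2.33 for NHS, -2.32 for ZNF702P, -2.13 for CD274 and -1.98 for RUNX2. Of the genes with the largest change against shNC, ATP10A differed by 11.63, NFATC4 by 7.63, FAM117A by 1.68 and SLC22A3 by -1.26. ATP10A and NFATC4 were at 0 or 1 count in shHMGA2-2, so that the size of their difference depends on the prior count of the fit. With 2 libraries a group, no library could be tested as an outlier.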

How the results depend on the processing

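The count of called genes (1367, with 788 genes higher in shHMGA2-1 than in shNC and 579 genes lower in shHMGA2-1 than in shNC) and of those changed only there (223, with 108 and 115) depended on the test and the filter. The test against the 2-fold limit called 522 (278 higher, 244 lower) and 63 (23 and 40). A filter of a mean FPKM of 1 left 777 (395 and 382) and 123 (52 and 71), since fewer genes were tested. DESeq2 called 990, of which 512 were higher, and 143 changed only in shHMGA2-1, of which 58 were higher. Without a library, 1170 to 1381 genes were called, 643 to 784 higher and 524 to 597 lower, and 192 to 214 were changed only in shHMGA2-1. With the replicate block 1304 genes were called, 1300 of them shared. Whether the replicate numbers pair the samples is not known. Differences between replicates correlated by -0.02, 0.00 and -0.10 between groups. These values cannot settle it, since counting error in genes with few counts draws them towards 0. The block changed no call of a named gene. Of 125 called genes named by the rule, 93 kept their call under every alternative that tested them, and 0 changed direction. ACTA2, ANKRD37, BCL3, BMP6, CD74, CLDN3, CSF3, DUSP4, HES4, HLA-DPB1, KCNH1, LAMA3, MMP16, MX2, NRG2, PDGFRB and SPRED3 lost their call without 1 of the libraries, and the cause was not tested. The alternatives centred on neighbouring genes (1303 called) and without the chromosome 3 stretch (1350) were chosen after seeing the data. Centring moved only the fold changes and kept the adjusted p-values of the main fit. DESeq2 kept the count of called genes within 1.5 times in 33 of 36 lists and 58 of 64 terms, and the test against the 2-fold limit in 15 and 6. By a chi-square on counts, in which genes with many counts weigh most, replicates of shHMGA2-1 differed more than those of shNC (6.21 against 2.03 per degree of freedom). By the root mean square log2 difference over tested genes they did not (0.381 in shHMGA2-1, 0.387 in shNC). Genes under 1 CPM rest on few reads, and their fold changes depend on the prior count.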
